A study of Mus musculus with 4 samples.

Results

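The guanylate-binding proteins studied here are the 8 mouse genes Gbp2, Gbp3, Gbp4, Gbp5, Gbp6, Gbp7, Gbp8 and Gbp9, chosen by their symbols among the 27179 genes of a deposited read count table, and all 8 were found. They were measured by RNA-seq in plasmacytoid dendritic cells (pDCs), the sentinel cells that respond to viral nucleic acid through TLR7 and TLR9. C57BL/6 bone marrow precursors were cultured for 8 days with Flt3 ligand, which drives dendritic cell development, and the cells then received imiquimod, a ligand of TLR7, at 1 µg/ml for 24 h. After a sort on SiglecH and CD11b, cells were divided by the fluorescence of BFP, a blue reporter of the chemokine gene Cxcl10. The 4 libraries are BFP-positive replicates 1 and 2 and BFP-negative replicates 1 and 2, so n = 2 in each group, and every library comes from stimulated cells. One label calls the BFP-negative cells positive for CXCL10 where the series design calls them negative, so the groups rest on BFP alone. The sources used here do not give the number of mice, the side of the CD11b gate or the meaning of the code that libraries with the same replicate number share. The p-values below therefore measure the spread between these libraries, which may be partly technical.

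Guanylate-binding proteins are large interferon-inducible GTPases of the dynamin superfamily. They gather on the vacuoles and membranes of intracellular bacteria and parasites, break them open, and expose microbial products to inflammasomes. In the mouse their genes lie in a pair of clusters, and interferon gamma, acting in part through Irf1, is their best-known inducer, while type I interferon also induces them.

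The count table held 11 Gbp genes, the 8 members plus Gbp2b, Gbp10 and Gbp11. On the mouse assembly GRCm38 (RefSeq annotation), Gbp5, Gbp7, Gbp3, Gbp2b and Gbp2 lie in this order over 141 kb of chromosome 3, from 142496934 to 142638008. Gbp8, Gbp9, Gbp4, Gbp10, Gbp6 and Gbp11 lie over 334 kb of chromosome 5, from 105012513 to 105346476. These spans run from the first gene's start to the last gene's end, introns included. The libraries held 11868254 to 12570117 counts, so that 1 count was worth 0.0789 to 0.0858 CPM (CPM scales a count to a fixed library total, here adjusted by TMM factors that align library composition). Of the 27179 genes, 11706 had enough counts to be tested, the 8 members among them. At a Benjamini-Hochberg adjusted p under 0.05 (edgeR, quasi-likelihood, adjusted over all tested genes), 7.6% of these genes rose and 3.51% fell in BFP-positive against BFP-negative cells. Cxcl10, the gene of the sort, had 3 and 19 counts in the BFP-negative libraries and 149 and 154 in the BFP-positive ones.

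Summed over its genes, the cluster on chromosome 3 was higher in BFP-positive cells, but only Gbp2 and Gbp3 passed the test singly. No gene of the cluster on chromosome 5 passed. Among the 8 members, 2 rose in BFP-positive cells, Gbp2 and Gbp3, both on chromosome 3. With edgeR 0 members fell, and at an unadjusted p under 0.05 still 0 were lower and Gbp5 joined the higher ones. Under that unadjusted threshold lay 2871 of the 11706 tested genes, both directions together. DESeq2 and limma-voom also called 2 members higher and 0 lower, where they called 6.7% and 7.84% of all genes higher and 3.42% and 3.87% lower. Set against the 7.6% of all tested genes that were higher, 2 of 8 is 25%. The median log2 fold change was 0.77 over the 8 members and -0.02 over all tested genes. Over the 4 members of chromosome 3 it was 3.03 and over the 4 members of chromosome 5 it was -0.48. The values of both groups did not overlap in 7 members, 4 of them higher in BFP-positive cells and 3 lower; among all tested genes, 27.1% stood apart in each of these directions.

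**Figure D1:**
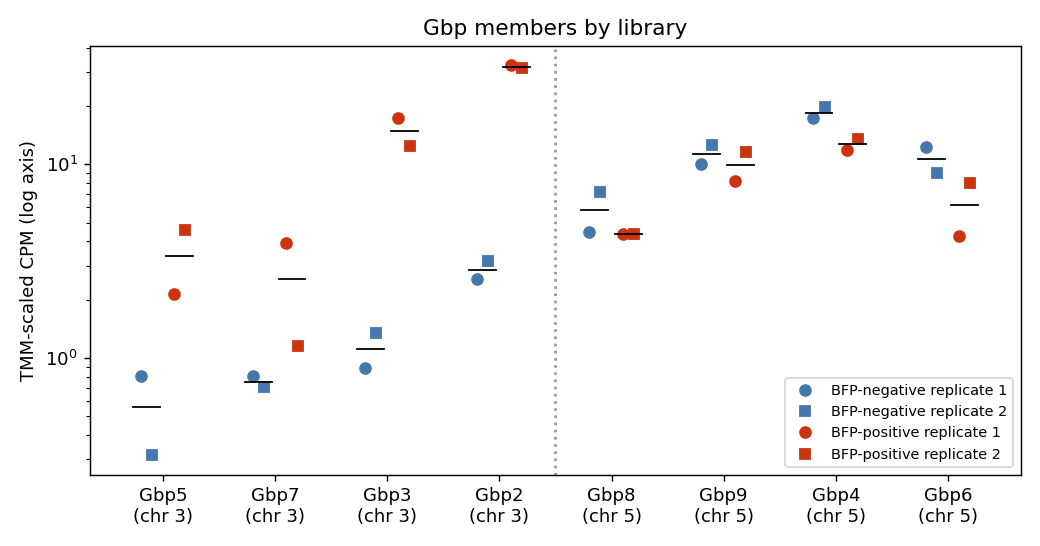
TMM-scaled CPM of the 8 Gbp members in each library (log axis), in genome order within each chromosome (chr), with BFP-negative libraries in blue and BFP-positive in red, circles for replicate 1 and squares for replicate 2, and black lines at group means. On the chromosome 3 side the red points lie above the blue ones, by most at Gbp2 and Gbp3; on the chromosome 5 side they lie close to or below them.

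Gbp2 encodes a protein with a lipid-modified C-terminus that is recruited to Toxoplasma and bacterial compartments in mouse cells. It was at 2.57 and 3.15 CPM in BFP-negative replicates 1 and 2 and at 32.4 and 31.5 CPM in BFP-positive replicates 1 and 2. Both BFP-positive libraries thus lay far above both BFP-negative ones, and the replicates lay close together. The log2 fold change was 3.48, SE 0.32, an 11.1-fold rise (edgeR adjusted p = 0.000121). Gbp3, whose product is likewise recruited to Toxoplasma vacuoles, was at 0.884 and 1.34 CPM in BFP-negative and 17.3 and 12.4 CPM in BFP-positive cells. Here too the groups were far apart, with the higher value in BFP-positive replicate 1. Its log2 fold change was 3.73, SE 0.49, a 13.3-fold rise with an edgeR adjusted p of 0.000901. When each library was left out in turn, both calls held, with log2 fold changes of 3.34 to 3.65 for Gbp2 and 3.47 to 4.08 for Gbp3.

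Gbp5 and Gbp7 share the locus but had much lower counts. Gbp5, linked in mouse macrophages to assembly of the NLRP3 inflammasome, had 10 and 4 counts in BFP-negative libraries and 25 and 56 in BFP-positive ones. The groups did not overlap, but each group's replicates differed by over 2-fold, at 0.804 and 0.315 CPM against 2.15 and 4.61 CPM. Its log2 fold change was 2.57, SE 0.93, and it did not pass the test (edgeR adjusted p = 0.114). Gbp7, linked in mice to defence against mycobacteria, had 10 and 9 counts in the BFP-negative libraries, 46 in BFP-positive replicate 1 and 14 in BFP-positive replicate 2. Most of its difference sat in BFP-positive replicate 1, at 3.95 CPM against 1.15 CPM in replicate 2 and 0.804 and 0.71 CPM in the BFP-negative libraries. The log2 fold change was 1.74, SE 0.95 (edgeR adjusted p = 0.298), and 0.60 without BFP-positive replicate 1. Gbp2b, known as the mouse Gbp1, was at 0 counts in both BFP-negative libraries, 3 in BFP-positive replicate 1 and 11 in BFP-positive replicate 2. It was too low to be tested in the main fit. Without a filter its log2 fold change was 5.86, SE 2.94, and it did not pass (edgeR adjusted p = 0.288). DESeq2 gave 5.32, SE 3.15, which did not pass either (adjusted p = 0.334). Against a floor of 3 counts over the BFP-negative group, its observed BFP-positive level was 4.93-fold higher. That floor covers counting error in the BFP-negative group only, and the BFP-positive counts were taken as observed.

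Promoter sequences were at hand for the chromosome 3 members only, and those of all 4 are shown. They come from RefSeq on GRCm38.p6 and run 5′ to 3′ from 250 bases before to 50 bases after a transcript start. Of the 11 Gbp genes, 5 had an entry, all on chromosome 3; Gbp4, Gbp6, Gbp8, Gbp9, Gbp10 and Gbp11 had none. Capitals mark matches to an interferon-stimulated response element (ISRE), searched as GAAA, any 2 bases and GAAA on both strands, and to a gamma-activated site (GAS), searched as TTC, any 3 bases and GAA, which reads alike on both strands. ISREs are known to be bound by interferon regulatory factors, and GAS elements to respond to interferon gamma.
Gbp2 promoter, chr3:142620413-142620712, plus strand: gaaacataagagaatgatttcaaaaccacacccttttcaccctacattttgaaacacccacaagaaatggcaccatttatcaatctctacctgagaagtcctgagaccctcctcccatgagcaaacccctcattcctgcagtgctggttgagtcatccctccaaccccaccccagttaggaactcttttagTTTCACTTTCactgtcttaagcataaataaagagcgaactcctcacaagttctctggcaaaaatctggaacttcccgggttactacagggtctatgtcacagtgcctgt
Gbp3 promoter, chr3:142559794-142560093, plus strand: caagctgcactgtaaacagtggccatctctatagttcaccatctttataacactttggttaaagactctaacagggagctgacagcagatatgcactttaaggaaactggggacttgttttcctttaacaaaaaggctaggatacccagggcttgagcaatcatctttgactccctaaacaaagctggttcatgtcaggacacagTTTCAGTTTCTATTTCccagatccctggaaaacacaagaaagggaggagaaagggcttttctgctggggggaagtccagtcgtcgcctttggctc
Gbp5 promoter, chr3:142496684-142496983, plus strand: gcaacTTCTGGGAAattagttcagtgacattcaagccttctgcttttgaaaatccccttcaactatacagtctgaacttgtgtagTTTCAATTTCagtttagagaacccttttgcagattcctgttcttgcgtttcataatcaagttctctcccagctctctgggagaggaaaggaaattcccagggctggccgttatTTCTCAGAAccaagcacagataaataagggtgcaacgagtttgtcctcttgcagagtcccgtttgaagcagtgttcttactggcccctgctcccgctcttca
Gbp7 promoter, chr3:142530086-142530385, plus strand: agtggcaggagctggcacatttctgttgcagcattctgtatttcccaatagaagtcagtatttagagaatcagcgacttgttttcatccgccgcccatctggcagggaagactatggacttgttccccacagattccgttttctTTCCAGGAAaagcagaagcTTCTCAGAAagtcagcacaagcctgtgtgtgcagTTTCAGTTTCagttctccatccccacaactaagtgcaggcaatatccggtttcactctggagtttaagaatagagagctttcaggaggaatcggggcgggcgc

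Each of the 5 genes with an entry had an ISRE match in at least 1 promoter window, against 3.99% of all 27025 genes in the RefSeq table; by window the share was 3.44% of 32851. All the matches were read on the minus strand. In Gbp2 the match TTTCACTTTC lay from -59 to -50 relative to the start. In Gbp3 TTTCAGTTTC lay from -45 to -36 and overlapped a further match, TTTCTATTTC, from -39 to -30; a further Gbp3 window, around a start downstream, held no match. Gbp7 had TTTCAGTTTC from -53 to -44, the same letters as in Gbp3. In Gbp5 the match was TTTCAATTTC, farther away at -165 to -156, and in Gbp2b it was TTTCACTTTC at -137 to -128. GAS matches were present in Gbp5 and Gbp7, at 2 places in each, and 9.55% of all genes hold one. Gbp2, Gbp3 and Gbp2b had the ISRE match and no GAS match in these windows, while Gbp5 and Gbp7 had both kinds, as 0.454% of all windows do. Whether the matches bear on the differences between BFP groups was not tested. A match describes letters and does not show that a factor binds there, and an empty window says nothing about sequence outside it.

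The chromosome 5 members were the more abundant Gbp genes in BFP-negative cells, and none passed the test. Gbp4, reported in mouse cells to bind Irf7 and restrain interferon induction, was at 17.3 and 19.7 CPM in BFP-negative and at 11.8 and 13.5 CPM in BFP-positive libraries. The groups did not overlap and lay close to each other, with a log2 fold change of -0.55, SE 0.30 (edgeR adjusted p = 0.300). Gbp6, which is recruited to Toxoplasma vacuoles, was at 12.3 and 8.99 CPM in BFP-negative and 4.29 and 7.98 CPM in BFP-positive cells. BFP-positive replicate 1 was the low library, and the log2 fold change of -0.79, SE 0.44 (edgeR adjusted p = 0.313) was -0.41 without it. Gbp9, another protein of Toxoplasma vacuoles, was at 10.04 and 12.6 CPM against 8.24 and 11.6 CPM. These ranges overlapped; the log2 fold change was -0.19, SE 0.37 (edgeR adjusted p = 0.81). Gbp8 was at 4.50 and 7.18 CPM in BFP-negative cells and 4.38 and 4.36 CPM in BFP-positive cells. BFP-negative replicate 2 alone stood above the other 3 libraries, and without it the log2 fold change of Gbp8 was -0.02 in place of -0.42. Gbp10 had 29 counts in BFP-negative replicate 1 and 5 to 10 in the others, and Gbp11 had 1 count in all.

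**Figure D2:**
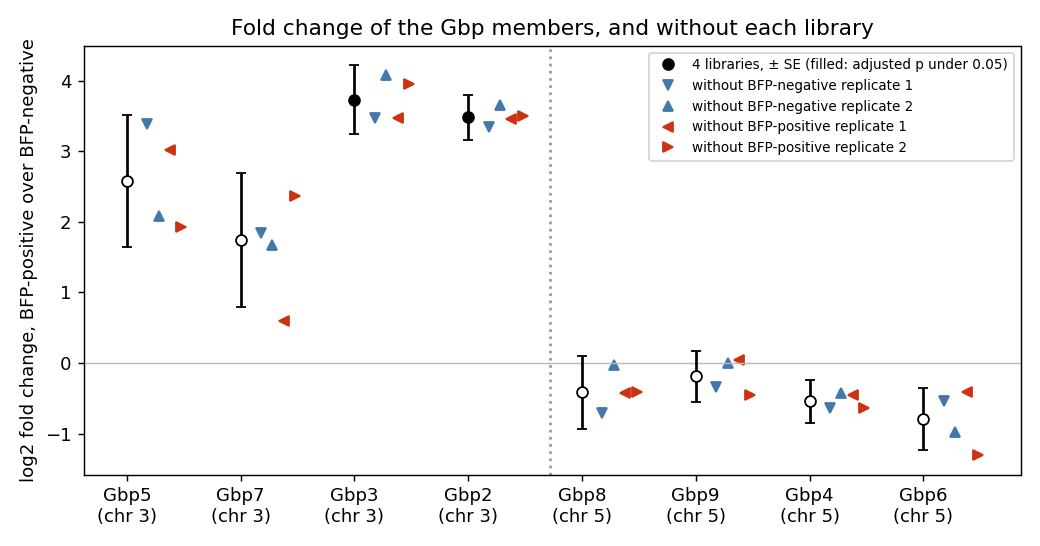
Log2 fold change of each Gbp member (BFP-positive over BFP-negative, edgeR), with black circles and SE bars for the 4 libraries together, filled where the adjusted p is under 0.05, and triangles for the value with 1 library left out. Gbp2 and Gbp3 stay between 3.34 and 4.08 throughout, Gbp5 and Gbp7 scatter from 0.60 to 3.38, and the chromosome 5 members lie between -1.30 and 0.04.

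Near-identical copies matter for these values, because a read that fits several genes may be split or lost, and no source used here states how such reads were counted. Transcripts of the chromosome 5 genes (GENCODE M21, the longest protein-coding transcript of each gene, local alignment) were 87.1% to 98.5% identical in pairs, with Gbp6 and Gbp10 the closest pair. Those of chromosome 3 were 65.7% to 82.1% identical, with Gbp2 and Gbp2b the closest. Of all 50-base stretches of Gbp6, 70.3% also occurred in another Gbp gene and 90.2% in the predicted gene Gm43302, and for Gbp10 the share in another Gbp gene was 73.9%. For Gbp8, Gbp4 and Gbp9 the share in another Gbp gene was 21.2%, 12.8% and 9.56%, and for Gbp3, Gbp7, Gbp2 and Gbp5 it was 4.79%, 2.28%, 2.07% and 0%. The single values of Gbp6 and Gbp10 are therefore uncertain, and those of Gbp8, Gbp4 and Gbp9 less so. The transcript searched was not always the sequence counted. For Gbp6 it had 2604 bases against a counted length of 4.32 kb, and for Gbp9 4381 bases against 3.63 kb. The shares of these genes thus describe the searched transcripts only. Between the clusters, at most 0.0781% of the 50-base stretches of a Gbp transcript were shared. A sum over a cluster is free of how reads were divided among its listed genes, but not of reads that were discarded or assigned to predicted genes outside the sum, such as Gm43302 or Gm43802, which holds 10.6% of the 50-base stretches of Gbp7.

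Summed in this way, the chromosome 3 cluster had 63 and 70 counts in BFP-negative libraries and 654 and 615 in BFP-positive ones. The groups lay far apart, at 5.29 ± 0.324 CPM (SD, n = 2) against 53.4 ± 3.89 CPM (SD, n = 2). The log2 fold change of the sum was 3.33, SE 0.25, a 10.1-fold rise (edgeR adjusted p = 3.19e-05 over 11699 genes, with the Gbp rows replaced by their sums). In BFP-positive replicates 1 and 2, Gbp2 supplied 378 and 383 of the summed counts and Gbp3 202 and 151. The sum thus mostly reflects these genes. The chromosome 5 cluster had 578 and 620 counts in BFP-negative and 345 and 461 in BFP-positive libraries. Its groups did not overlap, at 47.7 ± 1.73 CPM (SD, n = 2) and 33.8 ± 5.90 CPM (SD, n = 2), and the sum missed the threshold (log2 fold change -0.50, SE 0.21, edgeR adjusted p = 0.177). The chromosome 3 share of all Gbp counts was 9.83% and 10.1% in BFP-negative replicates 1 and 2 and 65.5% and 57.2% in BFP-positive replicates 1 and 2. Chromosome 5 genes thus supplied most Gbp counts in both BFP-negative libraries and chromosome 3 genes most of them in both BFP-positive libraries. The log2 ratio of chromosome 3 to chromosome 5 counts was -3.17 ± 0.0359 (SD, n = 2) and 0.669 ± 0.358 (SD, n = 2). In an exact two-sided permutation test over the 4 libraries its difference of 3.84 had p = 0.333, the smallest value this design allows. In bulk samples, fewer cells expressing a gene and less of its RNA per cell cannot be told apart.

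**Figure D3:**
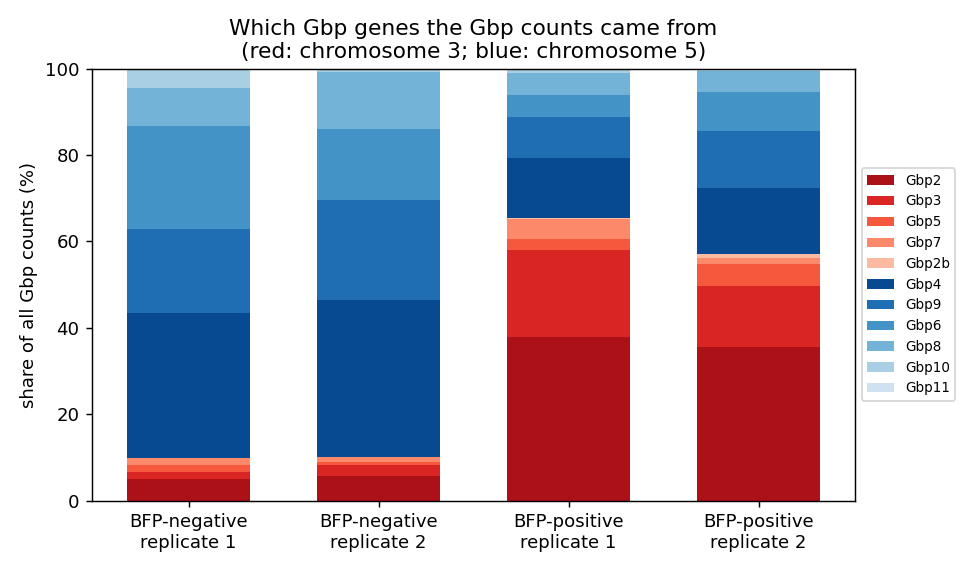
Share of all Gbp counts taken by each of the 11 Gbp genes in each library, in percent, with chromosome 3 genes in reds and chromosome 5 genes in blues. The red part is 9.83% and 10.1% of the bar in the BFP-negative libraries and 65.5% and 57.2% in the BFP-positive ones.

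Levels of different genes were compared per length, on the deposited log2 RPKM scale, and are described without a test. In BFP-negative cells Gbp4 stood highest, at 1.98 and 2.13, followed by Gbp9 at 1.52 and 1.81, Gbp6 at 1.56 and 1.07, and Gbp8 at 0.93 and 1.56. The ranges of Gbp9 and Gbp6 and of Gbp6 and Gbp8 overlapped, and those of Gbp4 and Gbp9 did not. Gbp2 followed at 0.13 and 0.38, and Gbp3 at -1.50 and -0.95, with Gbp5 and Gbp7 at the bottom with means of -2.50 and -2.81. In BFP-positive cells Gbp2 stood highest, at 3.70 and 3.64, and Gbp3 second, at 2.69 and 2.20. Both lay above Gbp4, at 1.36 and 1.53, and Gbp9, at 1.16 and 1.64, whose ranges overlapped each other. Gbp8, Gbp6 and Gbp5 followed with means of 0.80, 0.41 and 0.03, each neighbouring pair overlapping, and Gbp7 was lowest of the members at a mean of -1.40. The level order of Gbp2 and Gbp4 was thus opposite in both groups, in each library.

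**Figure D4:**
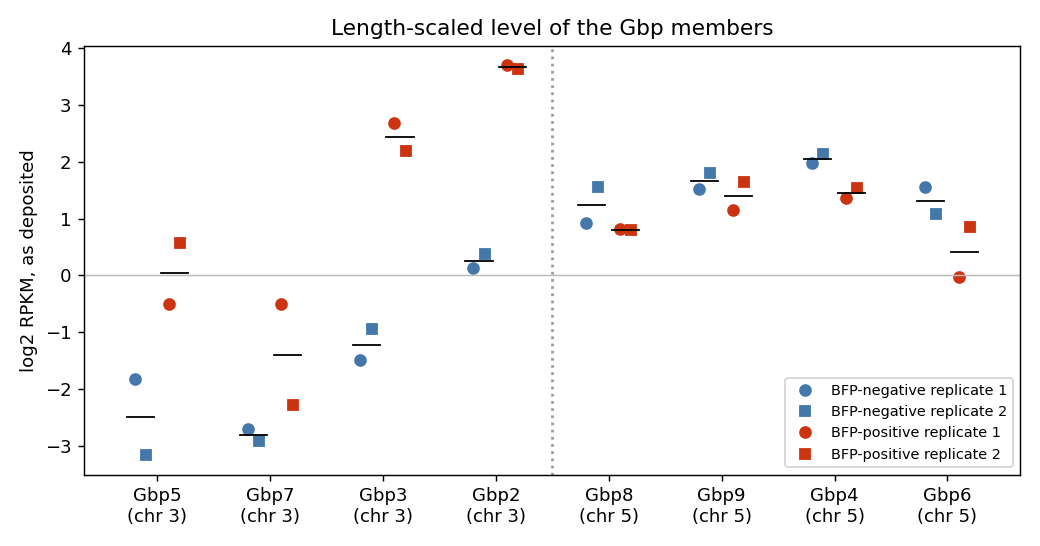
Deposited log2 RPKM of the 8 Gbp members in each library (linear axis of log2 values), with colours, symbols and mean lines as for the plot of CPM. Gbp4 is the highest member in both BFP-negative libraries, at 1.98 and 2.13, and Gbp2 in both BFP-positive libraries, at 3.70 and 3.64.

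Likeness between genes was measured as the root mean square distance of log2 CPM values, each gene centred on its mean over the 4 libraries, and with 2 groups it mostly reflects the group difference. Among the members, Gbp2 and Gbp3 lay 0.191 apart, and Gbp4 lay 0.198 and 0.206 from Gbp8 and Gbp9, while Gbp2 and Gbp4 were 1.98 apart. Among 5775 other named genes with a mean of at least 20 CPM, those closest to Gbp2 were Cd14, Ifitm2 and Gprc5c, at distances of 0.107, 0.150 and 0.161. For Gbp3 they were Wfdc17, Fabp5 and Cd14, at 0.255, 0.266 and 0.266. The nearest genes to Gbp5 and Gbp7, Pde4b and Arsb, lay farther off, at 0.307 and 0.380. Those nearest to Gbp4, Gbp8 and Gbp6 were Sars, Ptges2 and Bloc1s5, at 0.0212, 0.0315 and 0.0495. The mean of the 4 tested chromosome 3 genes was closest to Vim, Rtp4 and Cd200r1, at 0.111, 0.145 and 0.149.

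Upstream of the Gbp genes, some interferon receptors and regulators rose with them and others did not pass. Of 21 genes on that list, 20 were tested, 5 rose and none fell, with a median log2 fold change of 0.27. The counts in this list and in those below stand beside 7.6% of all tested genes higher and 3.51% lower. Irf1, the transcription factor through which interferon gamma induces Gbp genes, was at 95.1 and 103 CPM in BFP-negative and 185 and 188 CPM in BFP-positive libraries (log2 fold change 0.91, edgeR adjusted p = 0.00266). Ifngr1, the ligand-binding chain of the interferon gamma receptor, rose from 48.3 and 58.1 to 104 and 106 CPM (log2 fold change 0.98, edgeR adjusted p = 0.00502). Both genes had groups that stood well apart with close replicates. Socs1 and Socs3, feedback inhibitors of Jak signalling, rose by log2 0.94 and 0.95, and Irf7, the main driver of interferon alpha genes, by 0.67. Socs1 no longer passed when BFP-negative replicate 2 was left out (edgeR adjusted p = 0.0859) or when replicate 1 of the BFP-positive cells was (0.132).

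The other components named here did not pass. Ifngr2, the signalling chain of the interferon gamma receptor, was at 220 and 196 CPM in BFP-negative against 226 and 226 CPM in BFP-positive libraries (log2 fold change 0.12), and the type I receptor genes Ifnar1 and Ifnar2 had log2 fold changes of 0.24 and -0.11. Irf8, a factor of pDC and dendritic cell development that also acts on Gbp genes in macrophages, was at 2740 and 3251 against 2560 and 2547 CPM (-0.23). Nlrc5, a class I transactivator, was at 21.5 and 38.4 against 15.1 and 25.6 CPM (-0.56). Counts of interferon genes were few. Of 21, 15 had no count in any library and 2 were tested. Many of the 15 were interferon alpha genes. How reads fitting several genes were counted is not stated, so the lack of a count need not mean absent RNA. Ifng was at 8.36 and 5.36 CPM in BFP-negative and 7.12 and 3.62 CPM in BFP-positive libraries, which overlapped.

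Immunity-related GTPases, small interferon-induced GTPases that act with guanylate-binding proteins at parasite vacuoles, rose in 6 of 11 tested cases and fell in none, with a median log2 fold change of 0.56. Gm12250, which encodes Irgb10, rose from 49.6 and 54.6 to 103 and 88.8 CPM (log2 fold change 0.88, edgeR adjusted p = 0.00909). Ifi47 rose from 274 and 267 to 394 and 404 CPM (0.56, edgeR adjusted p = 0.0133). Irgm1, a regulator of the other family members, rose from 298 and 321 to 418 and 422 CPM (0.44, edgeR adjusted p = 0.0407), and Igtp and Irgm2 had 0.30 and 0.18 and did not pass. These calls were close to the threshold: without BFP-positive replicate 1 none of the 12 tested members was called, and without any of the other 3 libraries 4 or 5 rose. Limma on the log2 RPKM values called 2 of 11. Tgtp1 and Tgtp2, which rose, are near-identical copies and their single values are uncertain.

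Core interferon-stimulated genes of the type I response rose in 13 of 25 cases and fell in 2, with a median log2 fold change of 0.72. Rtp4 and Oas1a rose by log2 2.86 and 3.32, near the sizes of Gbp2 and Gbp3, while Isg15, a ubiquitin-like modifier, was at 598 and 639 against 713 and 671 CPM (0.16) and the antiviral GTPase gene Mx1 at 14.7 and 10.9 against 8.84 and 11.5 CPM (-0.33). Neither of these passed. Oasl1, reported to restrain Irf7 translation in mice, fell from 389 and 426 to 162 and 228 CPM. The number that rose was 9 to 13 when each library was left out.

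Among genes that work beside or downstream of guanylate-binding proteins, inflammasome and pyroptosis genes rose in 4 of 11 tested cases and fell in 1. Il1b, the inflammasome-processed cytokine, rose from 9.48 and 14.2 to 265 and 287 CPM (log2 fold change 4.54, edgeR adjusted p = 2.01e-06). Gsdmd, the pore-forming protein of pyroptosis, rose from 21.2 and 32.02 to 69.4 and 101 CPM (1.68, edgeR adjusted p = 0.00243). Pycard, the inflammasome adaptor, and Casp1, its protease, rose by log2 0.52 and 1.07. When each library was left out in turn, the log2 fold change ran from 4.29 to 4.88 for Il1b and from 1.39 to 2.03 for Gsdmd. The calls of Pycard and Casp1 were each lost when a single library, BFP-positive replicate 1 or BFP-negative replicate 2, was left out. Without BFP-negative replicate 1, 2 fell. Casp8, an apoptotic protease, fell from 493 and 398 to 272 and 241 CPM. Casp4, the mouse caspase-11 that senses bacterial lipopolysaccharide, was at 12.4 and 4.26 against 9.35 and 8.64 CPM, and the DNA sensor gene Aim2 at 18.7 and 16.8 against 16.6 and 17.6 CPM. The groups of both genes overlapped. None of the 10 Atg8 conjugation genes, which help bring guanylate-binding proteins to vacuoles, passed (edgeR, median log2 fold change 0.07). Nor did any of the 5 genes of prenylation, the lipid modification of Gbp2 and Gbp5 (edgeR, median log2 fold change -0.13).

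**Figure D5:**
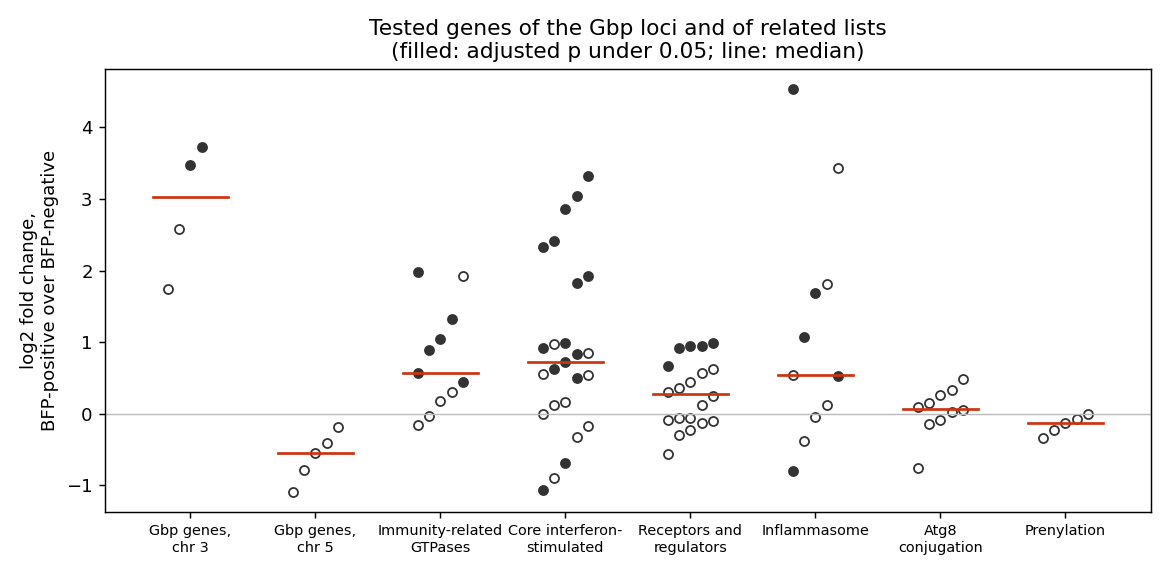
Log2 fold change (BFP-positive over BFP-negative, edgeR) of every tested gene in the Gbp clusters and in 6 related lists, filled where the adjusted p is under 0.05, with a red line at each median. The chromosome 3 Gbp genes lie between 1.74 and 3.73 and the chromosome 5 ones between -1.09 and -0.19, while the other lists spread around medians of -0.13 to 0.72.

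Markers of other cell types moved with these differences. Of 11 monocyte and macrophage markers, 9 were tested, 6 rose and 2 fell; their summed level was 641 and 777 CPM in BFP-negative and 1386 and 1535 CPM in BFP-positive libraries. Csf1r, the receptor for macrophage colony-stimulating factor, was at 0.241 and 0 CPM in BFP-negative and 22.7 and 32.8 CPM in BFP-positive libraries, and Cd14, a lipopolysaccharide co-receptor, at 9.80 and 10.3 against 99.4 and 95.9 CPM. Lyz2, Fcgr1, Ly6c2 and Ccr2 also rose, Apoe and Adgre1 fell, Cd68 did not pass (log2 fold change 0.10), and Mertk was at 0 counts in every library. Of 17 conventional dendritic cell markers, 15 were tested, 5 rose and 1 fell, with a summed level of 807 and 823 against 1081 and 1156 CPM (8 rose without BFP-negative replicate 2, and limma on the log2 RPKM values called 2). In the conventional dendritic cell sum, Id2 alone was at 488 and 419 against 509 and 463 CPM and did not pass (log2 fold change 0.10). Clec4n was at 0 and 0.552 against 10.9 and 16.4 CPM, and Clec4a2 at 0.884 and 0 against 12.9 and 13.5 CPM. Naaa rose by log2 1.01, and Cadm1 was the marker that fell (-1.06). B cell markers summed to 127 and 123 against 96.3 and 101 CPM, with 2 of 5 tested lower and none higher. The pDC markers were high in all libraries, at 24271 and 28817 CPM in BFP-negative and 20193 and 19285 CPM in BFP-positive cells, with 2 of 12 higher and 4 lower (0 higher and 2 lower without BFP-positive replicate 2, 1 higher without any of the other 3 libraries). T and NK cell markers summed to 5.05 to 13.3 CPM in every library, with Cd3g and Eomes at 0. The part of these markers in the Gbp differences was not tested.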

How the data were processed

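Counts per gene for 4 libraries were taken as the authors deposited them, whole numbers without normalization; the deposited log2 RPKM tables, 1 for each library, hold log2 values scaled by the authors to gene length and library total. Per the submitters' processing notes, Subread, featureCounts and limma were used with builds GRCm38 and mm10; tool versions, the strand setting and the handling of multi-mapping reads are not given in the sources used here. The cDNA kit was SMART-Seq v4, per the labels' protocols, which does not mark strand or single molecules. Members were matched by symbol and placed with RefSeq (GRCm38.p6). Members and gene lists were chosen with earlier results of these data known.

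Genes were kept by filterByExpr (minimum count 10, minimum total 15), and 15473 were not tested. The main fit was edgeR 4.0.16 quasi-likelihood in R 4.3.3, with TMM factors of 0.973 to 1.04 and no covariate beside the group. It left 2 residual degrees of freedom; the biological coefficient of variation was 24.7%. Tests were two-sided, with an adjusted p threshold of 0.05. SE is the size of the log2 fold change divided by the root of F. The script was tested on simulated data. Alternatives used DESeq2 1.42.0, limma 3.58.1, other scalings and filters, a replicate block and each library left out. The text names all Gbp genes, set regulators of them and 2 to 4 members of each list with the smallest p. Irgm1, Igtp, Irgm2, Isg15, Mx1, Oasl1, Casp1, Casp4, Aim2 and Id2 were chosen after their values were seen. Some items withheld for evaluation are not reported here. Replicates were separate libraries by their counts (chi-square per degree of freedom 19.8 and 15.5). Promoter and transcript searches used Biopython 1.88.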

Additional observations from a re-analysis of the deposited data

How the results depend on the processing

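The calls of Gbp2 and Gbp3 and of the chromosome 3 sum held under all alternatives that gave them a value, 13 for each gene and 12 for the sum, which the log2 RPKM values did not give; adjusted p ran up to 0.00153 for Gbp2 and 0.00642 for Gbp3. No other member was called under any alternative, and 2 members were higher and 0 lower in each. Among a set of named genes followed across the alternatives, not all tested genes, 5 uncalled ones changed sign when each library was left out. Their log2 fold changes ran from -0.456 to 0.0351 for Gbp9, -1.84 to 0.68 for Gbp10 and -0.919 to 0.058 for Ifng. For Fntb they ran from -0.864 to 0.31 and for Klrb1c from -1.52 to 0.33. The cause was not tested. Over all genes, leaving out each library gave 559 to 921 genes higher and 245 to 408 lower, against 890 and 411, the lowest being 559 without BFP-positive replicate 2 and 245 without its replicate 1. Scaling by library totals gave 813 and 574. With a group left at 1 library, that library is assumed to vary like the other group. With the replicate number as a block, 1140 genes were higher and 760 lower; same-numbered libraries deviated together by a correlation of 0.06 across genes, and whether the code in their titles marks shared animals or days is not stated, so they were not treated as pairs; the block changed the call of no member and of neither cluster sum. At this depth Gbp2b and Gbp11 had too few counts to be tested in the main fit.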
